A study of Mus musculus with 20 samples.

Results

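The 10 genes described here encode 5 Eph receptors (Epha1, Epha2, Epha4, Ephb2 and Ephb4) and 5 ephrins (Efna1, Efna4, Efna5, Efnb1 and Efnb2). They were taken by their symbols from the 21509 protein-coding genes measured by RNA-seq in DC2 cells, an immortalized line of principal cells from the distal caput of the mouse epididymis. In the first experiment, 6 libraries came from cells under flow for 3 h, at a shear stress of 1 dyn/cm2, and 6 from cells kept without it (static). In the other experiment, 4 libraries came from cells transfected with a mixture of siRNAs against Ift88, a protein needed to build cilia, and 4 from cells given a scrambled control siRNA. According to the methods, both siRNA groups were under shear stress, which their labels do not name. All groups are the same cell line in a medium with dihydrotestosterone, so they stand for 1 line and not for the epididymal epithelium as a whole. Nothing in the labels says that the libraries of a group came from separate cultures, so the p-values measure the spread between these libraries.

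Eph receptors are receptor tyrosine kinases whose ligands, the ephrins, are themselves bound to the surface of neighbouring cells. A-type ephrins are held by a lipid anchor and B-type ephrins span the membrane, and binding can signal both into the cell with the receptor and into the cell with the ephrin. In epithelia the system is known for setting cell contacts, boundaries and motility, and Src family kinases carry part of its signal into the cell. EphA2 is the receptor most typical of epithelia and ephrin-A1 is its best known ligand.

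Values are TPM, a transcript abundance unit. TPM values are corrected for transcript length and sum to 1000000 in each library, so levels can be compared between genes of a library. The number of reads is not in them, so the depth and the counting error of each value are unknown. Of 10 principal cell markers, at least 3 were listed at 0 in every library of each group. Of 6 epithelial markers, the keratins Krt18 and Krt19 were above 1 TPM in all groups. Ccn2, a gene known to respond to mechanical load, checked the flow labels and was 478.5 ± 188 TPM under flow against 61.1 ± 20.1 TPM in static cells (SD, n = 6 each), with no overlap. Among the flow libraries, replicate 2 had the lowest Ccn2, 233.4 TPM. The labels of flow replicate 6 conflict (its title says flow, its treatment field says static). It was counted as flow, and its Ccn2, 760.8 TPM, was the highest of all. Ift88 was 1.71, 1.27, 1.28 and 0.917 TPM in the Ift88 siRNA libraries against 4.21, 4.08, 4.15 and 4.12 TPM with control siRNA. The Ift88 siRNA libraries also had more genes above 0 TPM (15713 to 16682) than their controls (15292 to 15382).

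The sequences upstream of Epha2, Efna1 and Efnb2 are given first, since they show which short DNA motifs stood near their starts. These were the members with an unadjusted limma p under 0.05 in the flow comparison below. None of them was called there without regard to replicate number. Epha2 (ENSMUSG00000006445) lies on the plus strand at chr4:141301240-141329384 and no annotated gene overlaps it. Efna1 (ENSMUSG00000027954) lies on the minus strand at chr3:89271733-89281142, and its neighbours Efna3 and Efna4 lie beside it on the same strand, so that the 3 genes span 66296 bases. Efnb2 (ENSMUSG00000001300) lies on the minus strand at chr8:8617434-8661242. These positions are on GRCm38, an older build than the annotation used for the TPM. The 250 bases before each RefSeq start (GRCm38.p6) are printed 5′ to 3′ on the strand of the gene, at chr4:141300971-141301220 for Epha2, chr8:8661243-8661492 for Efnb2 and chr3:89280952-89281201 and chr3:89279646-89279895 for starts 1 and 2 of Efna1. Capitals mark a match to any of 5 motifs searched on both strands: the AP-1 site TGANTCA, the cyclic AMP response element (CRE) TGACGTCA, the TEAD site GGAATG, the EGR site GCGNGGGCG and the CArG box.
Epha2: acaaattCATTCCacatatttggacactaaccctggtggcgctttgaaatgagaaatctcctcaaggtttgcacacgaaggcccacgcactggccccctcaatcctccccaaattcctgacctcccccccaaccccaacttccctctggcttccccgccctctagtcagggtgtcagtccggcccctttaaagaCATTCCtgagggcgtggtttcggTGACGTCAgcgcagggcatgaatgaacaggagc
Efnb2: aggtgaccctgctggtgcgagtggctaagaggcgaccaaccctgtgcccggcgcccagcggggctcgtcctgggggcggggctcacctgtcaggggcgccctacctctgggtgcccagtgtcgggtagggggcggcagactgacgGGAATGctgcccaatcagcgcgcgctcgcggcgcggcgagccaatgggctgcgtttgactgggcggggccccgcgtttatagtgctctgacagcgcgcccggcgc
Efna1, start 1: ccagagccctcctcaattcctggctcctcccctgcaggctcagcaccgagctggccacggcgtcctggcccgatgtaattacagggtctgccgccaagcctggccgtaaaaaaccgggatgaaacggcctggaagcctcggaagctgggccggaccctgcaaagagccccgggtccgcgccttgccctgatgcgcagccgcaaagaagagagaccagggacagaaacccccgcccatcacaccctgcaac
Efna1, start 2: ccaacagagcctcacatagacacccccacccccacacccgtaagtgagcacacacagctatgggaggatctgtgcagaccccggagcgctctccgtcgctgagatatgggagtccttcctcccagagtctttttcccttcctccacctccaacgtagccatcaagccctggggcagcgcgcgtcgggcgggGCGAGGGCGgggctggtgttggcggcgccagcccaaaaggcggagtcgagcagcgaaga

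The Epha2 promoter held a full CRE palindrome from base -33 to base -26 before the start, a match found in 1.55% of 32851 promoters of the same length. It also held the TEAD site from -243 to -238 and from -56 to -51, both in the reverse orientation. In Efnb2, the TEAD site lay from -105 to -100. A TEAD site was present in 12.6% of all promoters and in 3 of the 11 promoters of the members, the other being that of Epha1. Start 1 of Efna1 held no match, and start 2 held an EGR site from -59 to -51, a motif found in 4.70% of all promoters and in 3 of the 11. No member promoter had an AP-1 site or a CArG box, which 6.75% and 1.47% of all promoters had. The matches overlapped no other match, and a match describes letters and not binding.

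DC2 cells carried 1 abundant Eph receptor and several ephrins. In static cells Epha2 was the most abundant member, 79.7 ± 11.1 TPM (SD, n = 6), followed by Efna1 with 33.3 ± 5.40, Efnb2 with 19.0 ± 2.09, Ephb4 with 14.1 ± 2.84, Efna5 with 7.82 ± 1.69, Efna4 with 7.59 ± 1.93 and Efnb1 with 5.83 ± 0.805 TPM. The ranges of Epha2, Efna1 and Efnb2 did not overlap in static cells. Those of Ephb4 and Efnb2 did, although Efnb2 was the higher in 6 of 6 libraries, and the neighbours Efna5, Efna4 and Efnb1 did not differ beyond their spread. The remaining receptors, Ephb2 (0.578 ± 0.232 TPM), Epha1 (0.349 ± 0.132) and Epha4 (0.132 ± 0.101), were below 1 TPM on average. Under flow the order of the means was the same, but Efna1 (26.1 ± 4.28 TPM) and Efnb2 (23.7 ± 3.23 TPM) were no longer separate, with Efna1 the higher in 3 of 6 libraries. Ephb2 was above Epha1 in only 2 of 6 flow libraries, and its highest value was 1.28 TPM in flow replicate 2. Of the 14 Eph receptor genes in the tables, Epha2 made up 76.1 ± 2.93% of the summed receptor TPM in static cells and 83.8 ± 8.42% under flow.

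**Figure D1:**
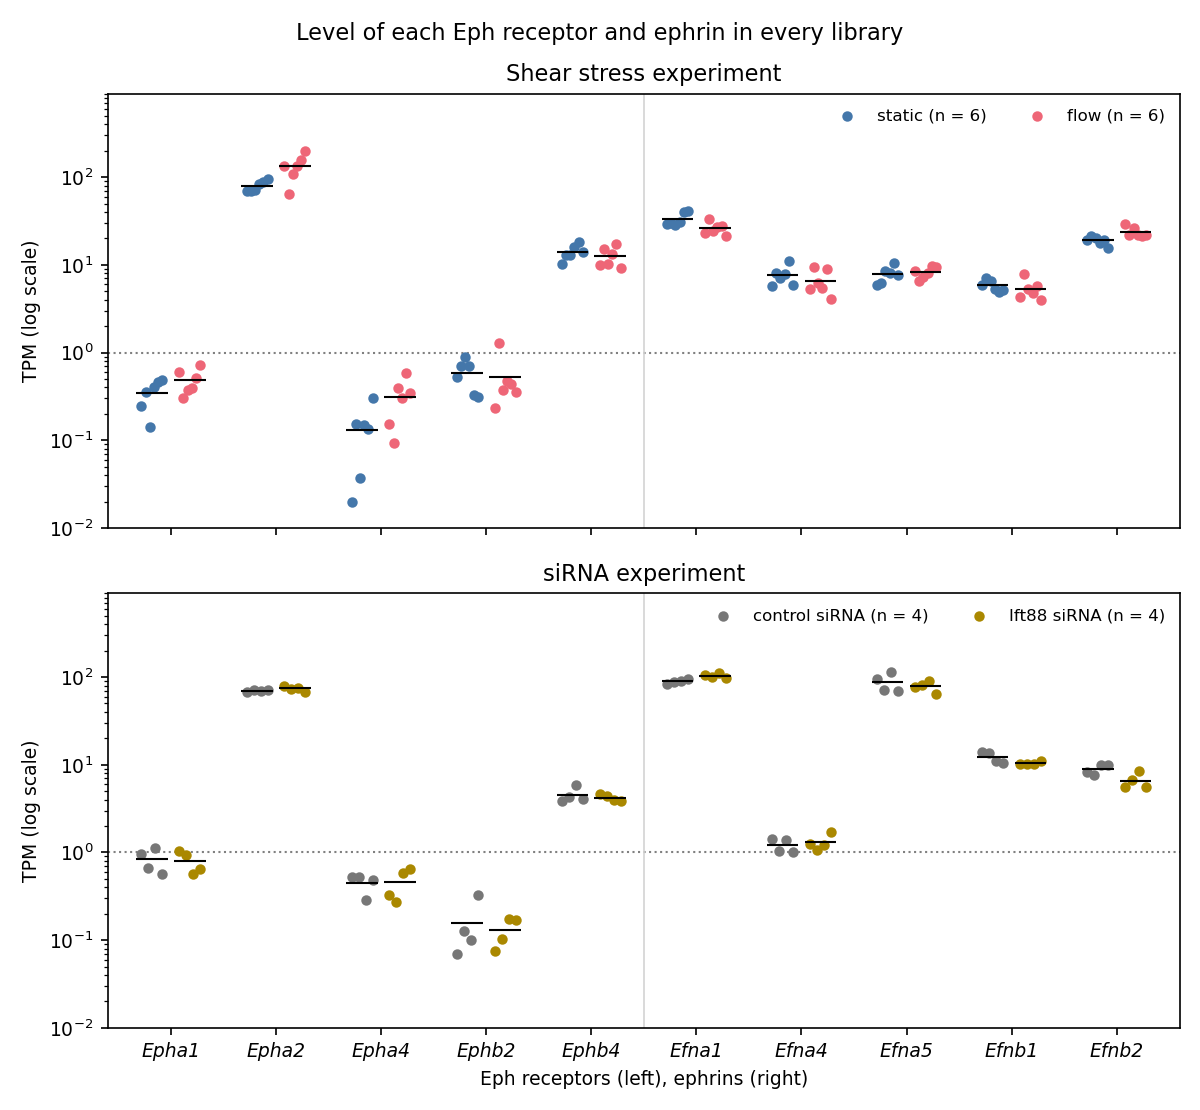
TPM of the 10 genes in every library on a log axis, with static and flow libraries above and control and Ift88 siRNA libraries below. Points are libraries, short black lines are group means, and the dotted line is 1 TPM. Epha2 stands above the other receptors in all 4 groups, and Efna5 is near 8 TPM in the upper panel and near 80 TPM in the lower.

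The question of the first experiment was which genes respond to shear stress. The comparison was fitted with limma on log2(TPM + 1) for the 11388 genes averaging 1 TPM or more over the table. P-values were adjusted by the Benjamini-Hochberg method over all of them, and a gene was called at an adjusted p under 0.05 with a change over 1.5-fold. Differences on that scale understate those of low genes. The median difference of all genes tested was -0.03 on that log2 scale. Of the members, 7 passed the filter, Epha2 and Ephb4 among the receptors and all 5 ephrins. Without regard to replicate number, limma called 0 of the 7, beside 12 genes called higher (0.105% of those tested) and 0 lower. At an unadjusted p under 0.05 there were 3 of the 7 (Epha2, Efna1 and Efnb2), beside 3.85% of all genes. Flow and static libraries of the same number deviated together, though libraries of different numbers were not compared. With the number as a block, 1 of the 7 was called, Epha2, beside 68 genes called higher (0.597%) and 0 lower. The groups overlapped for each of the 7, as they did for all but 0.544% of genes.

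The receptor Epha2 had the largest difference in log2(TPM + 1) between flow and static libraries of the 10 members. Its static levels were 70.2, 69.4, 71.4, 82.9, 87.7 and 96.5 TPM in replicates 1 to 6. Under flow they were 134.2, 64.2, 108.5, 135.0, 155.0 and 200.6 TPM. Of the 6 flow libraries, 5 lay above every static library, and flow replicate 2 lay below every static library. The mean was 132.9 ± 45.6 TPM under flow against 79.7 ± 11.1 TPM in static cells, a ratio of 1.67. The difference in log2(TPM + 1) was 0.66 with SE 0.206 (limma, adjusted p = 0.600) without the replicate block, and with the block its SE was 0.123 and its 95% interval 0.39 to 0.93 (limma, adjusted p = 0.0411). The call was lost with the block and median-of-ratios scaling together, where the difference was 0.69 (limma, adjusted p = 0.0767). Without flow replicate 2, Epha2 was called with no block, with a difference of 0.85 (limma, adjusted p = 0.00867). Pair 2 was the only pair in which Epha2 was lower under flow, so leaving it out favoured a call. With the block and without that pair, a fit chosen after seeing the data, the difference was 0.82 (limma, adjusted p = 9.3e-05). With flow replicate 6 counted as static it was 0.34 and not called (limma, adjusted p = 1.00).

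**Figure D2:**
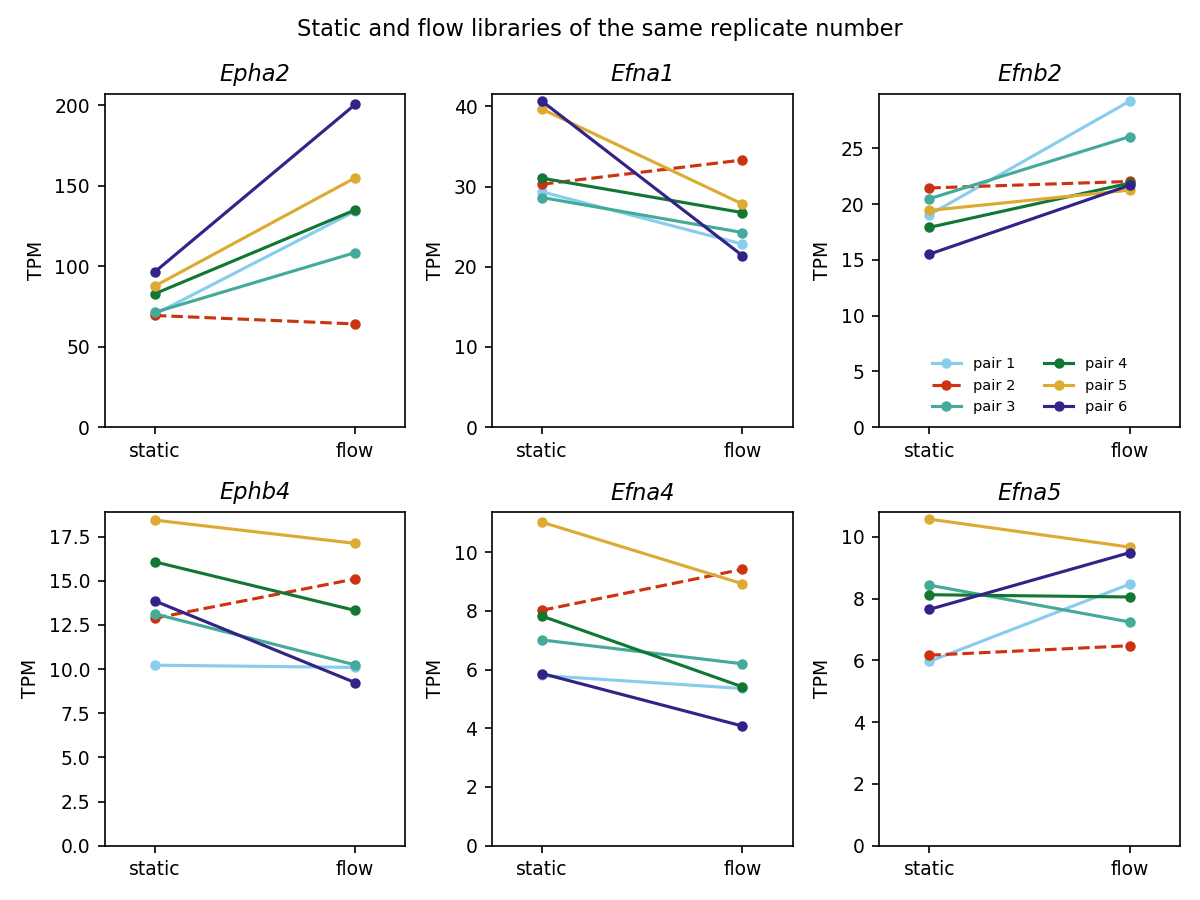
TPM of 6 members in static and flow libraries, with libraries of the same replicate number joined by a line. Pair 2 is dashed. Epha2 is higher under flow in 5 of 6 pairs, Efna1 is lower in 5 of 6 and Efnb2 is higher in 6 of 6, and pair 2 runs against the others for Epha2, Efna1, Ephb4 and Efna4.

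On the first principal component of all genes (34.4% of the variance), replicates 1 to 3 of both groups lay on 1 side of replicates 4 to 6, with the widest gap between replicates 4 and 5. Static Epha2 was 69.4 to 71.4 TPM in replicates 1 to 3 and 82.9 to 96.5 TPM in replicates 4 to 6. The Epha2 difference was 0.47 in replicates 1 to 3 alone and 0.85 in replicates 4 to 6 alone (limma, adjusted p = 1.00 and 0.0670). Neither subset gave a call, and the difference between them was not tested.

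Efna1 encodes ephrin-A1, the ligand of EphA2. Its static levels were 29.4, 30.3, 28.6, 31.1, 39.7 and 40.7 TPM in replicates 1 to 6. Under flow they were 22.8, 33.3, 24.3, 26.8, 27.8 and 21.4 TPM. All flow libraries but replicate 2 lay below every static library. The mean was 26.1 ± 4.28 TPM under flow against 33.3 ± 5.40 TPM in static cells (SD, n = 6 each). The difference in log2(TPM + 1) was -0.34 with SE 0.119 (limma, adjusted p = 0.887), and the adjusted p with the block was 0.299, so Efna1 did not pass the test. Its difference was -0.15 in replicates 1 to 3 alone and -0.53 in replicates 4 to 6 alone, neither of them called.

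Efnb2 encodes ephrin-B2, the ligand of EphB4. Its static levels were 19.0, 21.5, 20.5, 17.9, 19.4 and 15.5 TPM in replicates 1 to 6. Under flow they were 29.2, 22.0, 26.0, 21.9, 21.3 and 21.7 TPM. It was the only member above its static partner in 6 of 6 pairs, which was the case for 1.98% of all genes tested. The highest static library, replicate 2, lay above the lowest flow library, replicate 5, so the groups overlapped. The difference in log2(TPM + 1) was 0.30 with SE 0.0992 (limma, adjusted p = 0.745), and the adjusted p with the block was 0.191. In the fit with the block and without pair 2, chosen after seeing the data, Efnb2 (0.36, adjusted p = 0.0197) and Efna1 (-0.44, adjusted p = 0.0191) passed limma's adjusted p but stayed under 1.5-fold.

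Ephb4, the receptor of ephrin-B2, ranged from 10.2 to 18.4 TPM (median 13.5) in static cells and from 9.23 to 17.1 TPM (median 11.8) under flow. It was lower under flow in 5 of 6 pairs, and its difference was -0.17 with SE 0.161 and a 95% interval of -0.52 to 0.17. Efna4, an A-type ephrin, ranged from 5.80 to 11.02 TPM (median 7.42) in static cells and from 4.08 to 9.42 TPM (median 5.81) under flow. It too was lower in 5 of 6 pairs, with a difference of -0.20, SE 0.188 and an interval of -0.61 to 0.20. Lower values in at least 5 of 6 pairs were found for 3 of the 7 members tested (Ephb4, Efna1 and Efna4) and for 22.8% of all genes. Higher values in at least 5 of 6 pairs were found for 2 of the 7 (Epha2 and Efnb2) and for 11.5% of all genes.

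Efna5, an A-type ephrin, ranged from 5.97 to 10.6 TPM (median 7.89) in static cells and from 6.48 to 9.67 TPM (median 8.26) under flow. It was higher in 3 pairs and lower in 3, with a difference of 0.08 and an interval of -0.21 to 0.37. Efnb1, a B-type ephrin, ranged from 4.96 to 6.999 TPM (median 5.64) in static cells and from 4.02 to 7.92 TPM (median 5.01) under flow, a difference of -0.13 with an interval of -0.43 to 0.17. The intervals of Ephb4, Efna5 and Efnb1 lay within a 1.5-fold change in either direction, and that of Efna4 reached slightly past it on the low side. None of these 4 passed the test with or without the block.

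**Figure D3:**
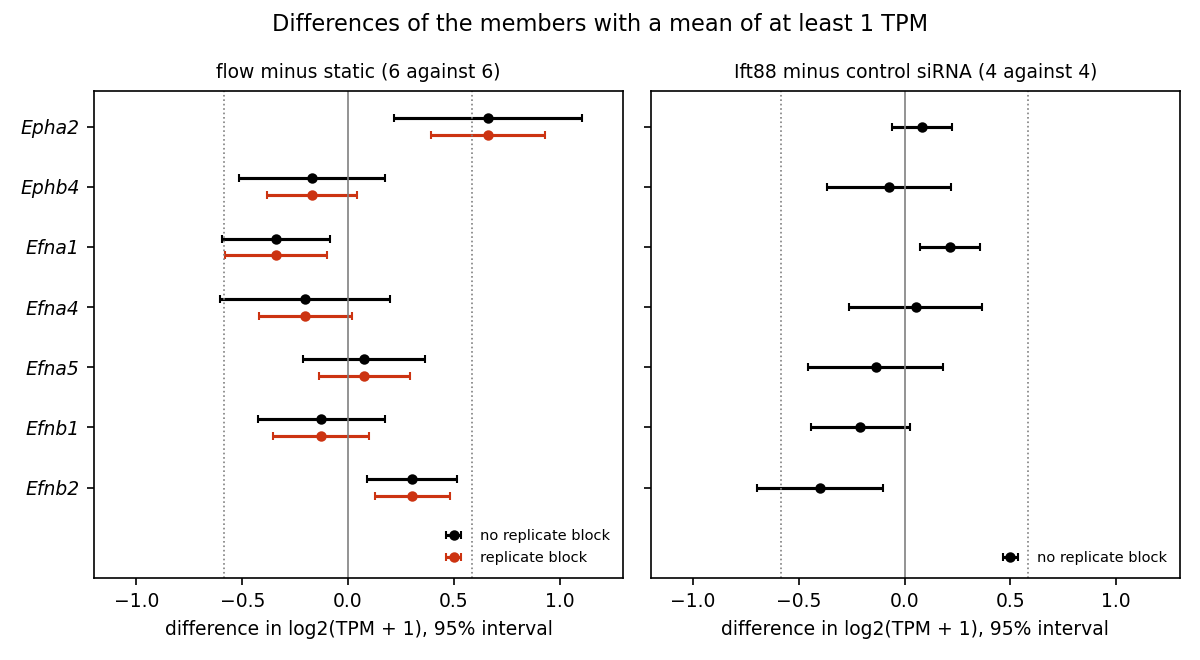
Differences in log2(TPM + 1) with 95% intervals for the 7 members tested, flow minus static on the left without (black) and with (red) the replicate block, and Ift88 siRNA minus control siRNA on the right without it. Dotted lines mark a 1.5-fold change. Epha2 under flow, at 0.66, is the only estimate past a dotted line.

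The receptors below the filter were compared with exact two-sided permutation tests on log2(TPM + 1), 6 tests over both experiments with adjusted p-values over the 6. These tests made no use of the pairs. Epha4, a receptor of both A-type and B-type ephrins, ranged from 0.0199 to 0.301 TPM (median 0.141) in static cells and from 0.0942 to 0.577 TPM (median 0.326) under flow. It was higher in 5 of 6 pairs, and the ratio of its means was 2.35. The difference in log2(TPM + 1) was 0.21 (exact p = 0.0563, adjusted p = 0.338), and with a pseudocount of 0.1 it was 0.82 (exact p = 0.0628, adjusted p = 0.377). An exact test within the pairs, chosen after seeing the data, gave Epha4 p = 0.0938, Epha1 p = 0.188 and Ephb2 a larger p, where 6 pairs allow no p below 0.0313. Epha1, a receptor of A-type ephrins, ranged from 0.143 to 0.483 TPM in static cells and from 0.302 to 0.723 TPM under flow (exact p = 0.141, adjusted p = 0.422). Ephb2, a receptor of B-type ephrins, ranged from 0.312 to 0.901 TPM in static cells and from 0.233 to 1.28 TPM under flow (exact p = 0.682, adjusted p = 0.971). The smallest p that 6 against 6 libraries allow is 0.00216. No difference of Epha1, Epha4 or Ephb2 passed these tests.

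The receptor and its ligand were set side by side within libraries. In static cells the ratio of Epha2 to Efna1 TPM was 2.40 ± 0.161 and ran only from 2.21 to 2.67, while both genes were higher in replicates 5 and 6 than in replicates 1 to 3. Under flow the ratio was 5.38 ± 2.41 and ran from 1.93 in replicate 2 to 9.37 in replicate 6. All flow libraries but replicate 2 lay above the static range. The ratio combines differences already given and was not tested. Over the 12 libraries log2(TPM + 1) of Epha2 and Efna1 had a Pearson r of -0.60, which describes libraries that share the flow treatment and carries no p. Pair 2, where Epha2 was not higher, was also the only pair where Efna1 was not lower.

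**Figure D4:**
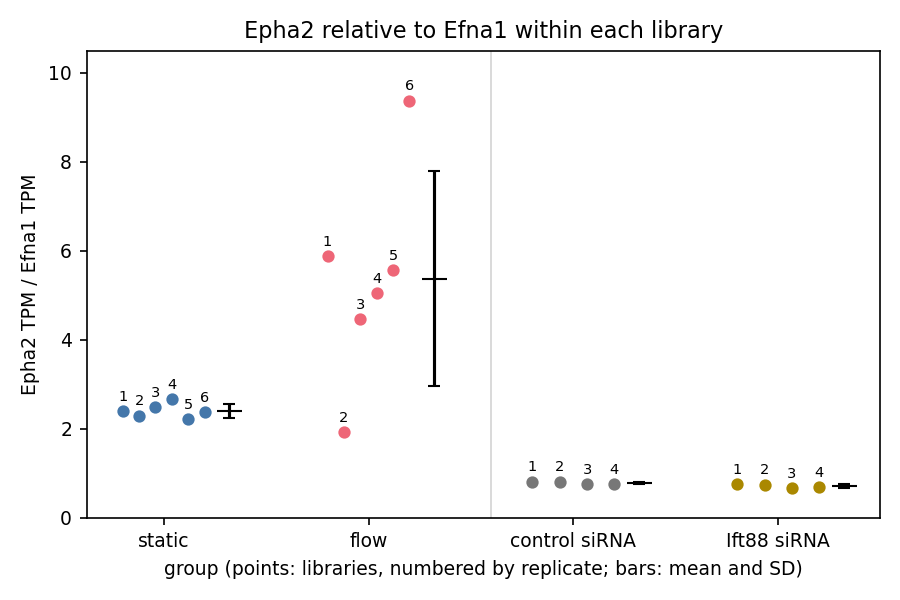
Ratio of Epha2 TPM to Efna1 TPM in each library, numbered by replicate, with the mean and SD of each group beside the points. The static ratios lie between 2.21 and 2.67, the flow ratios between 1.93 and 9.37, and the ratios of both siRNA groups below 1, in a table made separately.

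The genes whose pattern over the 12 libraries was most like Epha2, by Pearson r of log2(TPM + 1), were Dlc1 (0.976), Mtmr10 (0.9751), Ankrd1 (0.969), Iffo2 (0.969) and Ahnak (0.967). Once the mean of each pair was taken off, they were Gabarapl2 (0.998), Arl4c (0.993), Id3 (0.992), Tmem171 (0.992) and Rsad2 (0.991). No gene was in both lists. For Efna1 the 5 highest were Cbx2 (0.962), Alkbh7 (0.950), 9930012K11Rik (0.945), Csrnp2 (0.944) and Pcgf1 (0.941), and once the mean of each pair was taken off they were Pcgf1 (0.995), Usf2 (0.993), Rfxap (0.989), Vhl (0.988) and Pomk (0.988). Pcgf1, a Polycomb group gene, was in both lists of Efna1. These are the highest of 11388 correlations over 12 libraries that share treatment and pairing. Taking off the mean of a pair leaves 1 difference a pair, 6 in all, so a shared shift between flow and static libraries by itself gives a high r in those lists.

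In the siRNA experiment the question was whether the cells' state under flow depends on Ift88. Ift88 itself fell by 1.17 on the log2(TPM + 1) scale (SE 0.134, limma, adjusted p = 0.00212), to 1.295 ± 0.326 TPM from 4.14 ± 0.0541 TPM (SD, n = 4 each). The same 7 members passed the filter, of 11209 genes tested. With the same test, limma called 0 of the 7, beside 17 genes called higher (0.152%) and 8 lower (0.0714%). At an unadjusted p under 0.05 there were 2 of the 7, Efna1 and Efnb2, beside 13.9% of all genes.

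Efna1 was the only member whose groups did not overlap, which held for 8.58% of all genes. It was 105.0, 99.1, 112.5 and 98.5 TPM with Ift88 siRNA, against 83.5, 88.5, 90.8 and 94.1 TPM with control siRNA. The lowest Ift88 siRNA library lay just above the highest control library. The difference in log2(TPM + 1) was 0.22 with SE 0.0655 (limma, adjusted p = 0.177). The number of genes above 0 TPM and the summed level of the 5 basal cell markers (130.6 to 143.1 TPM with Ift88 siRNA, 161.5 to 173.6 TPM with control siRNA) also separated the groups, and their part in the Efna1 difference was not tested. Of those markers only Cd44 and Itga6 reached 1 TPM on average, and the sum was mostly Cd44. Both means were lower with Ift88 siRNA, and their differences were not tested against each other. Cd44 was 128.9 ± 5.14 TPM with Ift88 siRNA against 162.1 ± 5.34 TPM (-0.33, limma, adjusted p = 0.0236), under 1.5-fold, and Itga6 was 5.64 ± 0.645 against 6.09 ± 0.370 TPM (-0.10, adjusted p = 0.747). In such bulk libraries, fewer cells of a type and less RNA per cell cannot be told apart.

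Efnb2 was 5.56, 6.72, 8.41 and 5.59 TPM with Ift88 siRNA, against 8.31, 7.66, 9.88 and 9.88 TPM with control siRNA. Ift88 siRNA replicate 3 lay above the lower control libraries, and the other Ift88 siRNA libraries lay below all of them. The difference was -0.40 with SE 0.138 (limma, adjusted p = 0.225). Epha2 was 79.9, 73.7, 75.4 and 67.5 TPM with Ift88 siRNA, against 67.7, 71.8, 69.0 and 71.0 TPM with control siRNA. Its groups overlapped, and its difference of 0.08 had a 95% interval of -0.06 to 0.23, well within 1.5-fold (limma, adjusted p = 0.620).

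Efna5 was 77.0, 80.8, 90.7 and 64.6 TPM with Ift88 siRNA, against 94.0, 71.5, 115.3 and 69.1 TPM with control siRNA, a difference of -0.14 with an interval of -0.45 to 0.18. Efnb1 was 10.3, 10.1, 10.3 and 11.003 TPM with Ift88 siRNA, against 13.9, 13.5, 11.1 and 10.6 TPM with control siRNA, a difference of -0.21 with an interval of -0.44 to 0.02. Ephb4 (3.84 to 4.61 TPM with Ift88 siRNA, 3.84 to 5.91 TPM with control siRNA) differed by -0.08, and Efna4 (1.06 to 1.69 TPM and 1.01 to 1.43 TPM) by 0.05. The intervals of Efna5, Efnb1 and Ephb4 lay within a 1.5-fold change, and Efna4, near 1 TPM, was too low to read a fold from this scale. Epha1 (0.573 to 1.13 TPM over the 8 libraries), Epha4 (0.274 to 0.642 TPM) and Ephb2 (0.0701 to 0.330 TPM) stayed low, with exact p-values of 0.743, 0.971 and 0.857 from the permutation tests and a smallest p of 0.0286 for 4 against 4 libraries.

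The make-up of the ephrins differed between the experiments, whose libraries, culture steps and tables were separate, so these levels are set side by side without a test. The summed TPM of the 8 ephrin genes was 77.7 ± 6.59 in static cells and 73.9 ± 7.10 under flow (n = 6 each), and 203.0 ± 21.5 with control siRNA and 204.4 ± 17.7 with Ift88 siRNA (n = 4 each). Efna5 made up 10.004 ± 1.56% of that sum in static cells, 11.3 ± 2.37% under flow, 42.7 ± 6.08% with control siRNA and 38.2 ± 2.32% with Ift88 siRNA. Efnb2 made up 24.5 ± 3.34%, 32.3 ± 4.99%, 4.42 ± 0.550% and 3.20 ± 0.411% in the same order. Efna1 was the most abundant ephrin in static and Ift88 siRNA cells with no overlap with the next, and level with Efna5 in control siRNA cells (89.2 ± 4.46 and 87.5 ± 21.7 TPM). The ratio of Epha2 to Efna1 was 0.784 ± 0.0310 with control siRNA and 0.715 ± 0.0442 with Ift88 siRNA. Ccn2 was 222.3 ± 12.2 TPM with control siRNA. Efna5 was 7.82 ± 1.69 TPM in static cells and 8.24 ± 1.249 TPM under flow, so libraries with and without shear stress in the first experiment were both far below the siRNA libraries. Transfection and the other steps that differed between the experiments cannot be told apart in these levels.

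**Figure D5:**
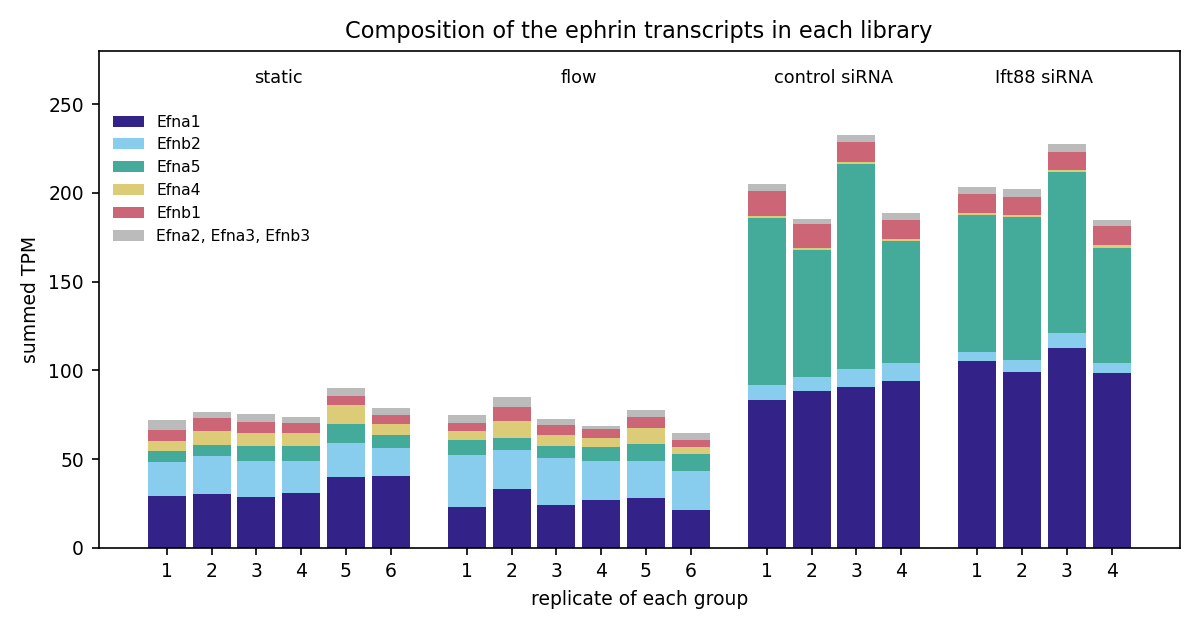
Summed TPM of the 8 ephrin genes in each library, stacked by gene, for the 4 groups. The static and flow sums lie between 64.6 and 90.3 TPM and the siRNA sums between 184.5 and 232.5 TPM, and the Efna5 segment differs most between the experiments.

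The other members of both families gave no call in either experiment. Of the 9 other Eph receptors, 3 were tested in the flow experiment (Epha7, Ephb3 and Ephb6), with differences between -0.21 and -0.06, and 2 in the siRNA experiment (Epha7 and Ephb6). Ephb6, which lacks kinase activity, was 2.65 ± 2.12 TPM under flow against 2.85 ± 0.722 TPM in static cells, and 3.34 ± 1.12 TPM with Ift88 siRNA against 4.25 ± 1.01 TPM with control siRNA. Ephb3, a receptor of B-type ephrins, was 4.16 ± 1.85 TPM under flow against 4.63 ± 1.57 TPM in static cells. Epha7 was 2.67 ± 0.433 TPM with Ift88 siRNA against 2.58 ± 0.83 TPM with control siRNA. Epha6 was listed at 0 in every library. Efna3, the neighbour of Efna1 and Efna4, was 2.51 ± 1.02 TPM under flow against 2.71 ± 0.523 TPM in static cells, and 2.68 ± 0.535 TPM with Ift88 siRNA against 2.28 ± 0.525 TPM with control siRNA. Efnb3 was 1.05 ± 0.334 TPM under flow against 0.964 ± 0.131 TPM in static cells, and Efna2 was 0.959 ± 0.432 TPM with Ift88 siRNA against 1.10 ± 0.162 TPM with control siRNA.

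Genes that carry Eph and ephrin signals into the cell were described as 2 lists of 32 genes in all, of which 31 were tested in the flow experiment and 30 in the siRNA experiment. With limma and no block, 0 were called in either experiment, and 1 had an unadjusted p under 0.05 in the flow experiment (3.85% of all genes did) and 2 in the siRNA experiment (13.9% of all genes). With the block, 0 of the 31 were called under flow. Of the 21 kinases and adaptors, all tested under flow, 11 had a higher mean and 10 a lower mean under flow, with a median difference of 0.00 against -0.03 for all genes. In this list Abl2, an Abl family kinase, was 38.1 ± 5.79 TPM under flow against 30.8 ± 3.04 TPM in static cells, a difference of 0.29 (limma, adjusted p = 0.998, and 0.312 with the block). The adaptor Shc1 was 127.1 ± 16.6 TPM under flow against 137.3 ± 7.62 TPM in static cells. In the siRNA experiment 20 of the 21 were tested and 15 had a lower mean with Ift88 siRNA, as did 5045 of the 11209 genes tested, with a median difference of -0.06 against 0.02 for all genes. The adaptor Nck2 had the smallest p of this list there, 1.51 ± 0.602 TPM against 2.26 ± 0.436 TPM with control siRNA (limma, adjusted p = 0.341), and Shc1 was 136.2 ± 11.4 TPM against 123.3 ± 5.90 TPM.

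Of the 11 ephrin-B partners and proteases, 10 were tested in each experiment, with medians of -0.01 under flow and -0.02 with Ift88 siRNA. Cnksr1, a scaffold protein, was 3.40 ± 1.04 TPM under flow against 4.41 ± 0.928 TPM in static cells, and Rgs3, a regulator of G protein signalling that binds ephrin-B, was 20.97 ± 5.13 and 17.1 ± 2.60 TPM. Dvl2, a Dishevelled protein, was 38.0 ± 2.66 TPM with Ift88 siRNA against 33.4 ± 2.56 TPM with control siRNA, and Sdcbp, which encodes syntenin, was 649.6 ± 22.9 and 630.0 ± 15.5 TPM. The groups of every gene named in these lists overlapped.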

How the data were processed

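The authors deposited TPM for 21509 protein-coding genes, in 1 table for each experiment. The methods name Trimmomatic, kallisto and tximport with the Ensembl mouse transcriptome, and the submitters' processing notes name fastp 0.20.0 and kallisto 0.46.2. TPM are not counts, so no count model was fitted.

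From the deposited TPM, log2(TPM + 1) was compared with limma 3.58.1 (R 4.3.3) with its trend option, for genes averaging 1 TPM or more. P-values were adjusted by the Benjamini-Hochberg method over all genes tested, with calls at an adjusted p-value under 0.05 and over 1.5-fold. Tested on simulated data, where 200 genes differed by 1 in log2(TPM + 1), more than any member did, limma recovered 93.5% for the flow design (11381 genes, 1.06% of calls false), 91.5% in the flow design with the replicate block (11428 genes, 2.66% false) and 93.0% in the siRNA design (11206 genes, 1.06% false). The simulated spread was drawn for each gene separately, with no shift of a whole library. Recovery of differences as small as those of the members was not simulated. Receptors under the filter had exact permutation tests (scipy 1.17.1). Deviations of same-numbered flow and static libraries from their group means correlated at 0.294, 0.463, 0.425, 0.468, 0.662 and 0.600 over genes. Libraries of different numbers were not compared in this way, and replicates 1 to 3 of both groups lay apart from replicates 4 to 6. These values therefore cannot show pairing by number. The methods name no pairing, so it was assumed and not tested.

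All 10 members are named. Of the other family and pathway lists, genes called are named, or otherwise the 2 with the smallest p. The members and lists were chosen with earlier results of these data known. Alternatives were no filter, library weights, the replicate block, a pseudocount of 0.1, no fold threshold, median-of-ratios scaling, left-out libraries, replicates 1 to 3 or 4 to 6 alone and flow replicate 6 as static. Positions are from GENCODE M21, promoters from RefSeq. The values of some listed genes are not reported here.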

Additional observations from a re-analysis of the deposited data

Results flagged for a closer look

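Each member was checked for a library far from the others of its group, in 40 groups of 4 or 6 libraries, of which chance marks about 5%. Among them, 2 had such a library, both for receptors below 1 TPM on average. Ephb2 was 1.28 TPM in flow replicate 2, while the next highest flow library had 0.473 TPM and the lowest 0.233 TPM. Epha4 was 0.288 TPM in control siRNA replicate 3, while the next lowest control library had 0.486 TPM and the highest 0.520 TPM.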

How the results depend on the processing

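Members called under flow numbered 0 without the replicate block, and 1 (Epha2) with the block, with library weights (difference 0.79), without flow replicate 2, and with the block without pair 2. Leaving out each library in turn gave 0 to 1 members called. In the siRNA experiment 0 members were called under every alternative run, the block included. The siRNA numbers were not taken to pair the libraries, whose deviations correlated at 0.0464, 0.00276, 0.259 and 0.176. The block moved the count of all genes called from 25 to 44 (0.393%). Of 259 values of members under an alternative, 248 kept their direction and side of the threshold, 4 passed it (all Epha2 under flow) and 7 changed sign, none of them called. Leaving out each library under flow gave Ephb4 from -0.26 to -0.09, Efna4 from -0.30 to -0.10, Efnb1 from -0.23 to -0.06 and Efna5 from 0.01 to 0.16, none of them called. With flow replicate 6 counted as static, Efna4 was 0.0073 and Efna5 -0.0016. With library weights in the siRNA experiment, Efna4 was -0.0039 and Ephb4 0.0038. Leaving out each siRNA library gave Efna4 from -0.026 to 0.10, Efna5 from -0.24 to 0.0047 and Ephb4 from -0.13 to 0.036, and both of the last changed sign without control siRNA replicate 3, Efna4 without Ift88 siRNA replicate 4. The causes were not tested. The count of all genes called under flow was 12, and 2 with no filter, 28 with median-of-ratios scaling, 86 with library weights, 87 without flow replicate 2, 0 with flow replicate 6 counted as static, 5 in replicates 1 to 3, 56 in replicates 4 to 6, 193 with the block without pair 2 and 41 with the block and median-of-ratios scaling, these last 2 chosen after seeing the data. The other left-out libraries gave 5 to 14. In the siRNA experiment it was 25, and 6 with no filter, 48 with library weights, 71 with no fold threshold and 11 to 23 with a library left out. The depth behind each value is not in the TPM.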
